A study of Mus musculus with 108 samples.

Results

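ERR receptors and PGC-1 coactivators were followed across the livers of this series through 4 genes: Esrra and Esrrg, which encode the estrogen-related receptors ERR alpha and ERR gamma, and Ppargc1a and Ppargc1b, which encode the coactivators PGC-1 alpha and PGC-1 beta. The genes were taken by symbol from each of the 3 deposited tables of quantile-normalised values, where they are 4 of 25124 gene symbols and 11 of 42361 transcript entries. The transcript entry with the highest mean stands for its gene.

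ERR receptors are orphan nuclear receptors: they bind DNA without a known natural hormone, and PGC-1 coactivators take the place of a ligand by docking on them and recruiting the transcription machinery. Together they are known for switching on genes of the respiratory chain, the citric acid cycle and fatty acid oxidation. In liver, PGC-1 alpha is known as a fasting-induced driver of gluconeogenesis, PGC-1 beta as a coactivator of lipid synthesis and lipoprotein secretion, and ERR gamma as a regulator of gluconeogenic genes and of hepcidin.

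All libraries came from livers of male mice taken at 2, 6, 10, 14, 18 and 22 h of zeitgeber time (ZT, counted from lights on). Each time has 3 numbered replicates, so each set holds 18 libraries. The wild-type sets were 129S1/SvImJ (129) on a high fat and sucrose diet (HFD, labelled D12492i), 129 on normal chow, C57BL/6J (B6) on HFD and B6 on normal chow, and these 72 libraries share 1 table. A further set is labelled Errg-Cre, strain 129S1/SvImJ, HFD. The last set is labelled Esrrg LKO, HFD, with B6 and diet-induced obesity in its titles but a mixed strain label (B6S1/SvImJ), and the columns of its table carry the Errg-Cre name. The design text describes a knockout in hepatocytes, so other liver cells would keep the gene, and the labels do not give the promoter or the delivery of Cre. Control libraries for these 2 sets were not used here. No label ties a replicate to an animal of its own; the p-values therefore rest on sample-to-sample spread, which may be technical. In bulk liver fewer cells of a type cannot be told apart from less RNA per cell.

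Quantile normalisation gives every library of a table the same total (10837743 in the wild-type table), so sequencing depth is unknown and no counting interval can be given. Of 12 hepatocyte markers, 11 had a mean of at least 10 in every set and Tf was under 1 in all; their summed level had medians of 1424780 in 129 HFD, 952037 in 129 chow, 431222 in B6 HFD and 1389860 in B6 chow livers. Of 10 skeletal muscle markers, 7 to 9 had a mean under 1 in every wild-type set, and of 8 kidney markers 5 to 7. The summed muscle markers nevertheless reached 85.3 in a B6 chow library, and at most 9.49 in the other wild-type sets. The summed kidney markers reached 97.1 in a B6 chow library, and at most 36.3 in the other wild-type sets. The adipocyte markers Adipoq, Ucp1, Plin1, Lep and Retn were under 1 in every set. Cidea and Cfd were under 1 in the 129 and Errg-Cre sets but not in B6 HFD, B6 chow or Esrrg LKO livers. The sum of the 7 adipocyte markers ran from 0.011 to 6.58 in 129 HFD livers and from 0.002 to 8.63 in 129 chow livers. It ran from 1.44 to 356 in B6 HFD livers and from 0.055 to 41.0 in B6 chow livers. Markers of other liver cells were among the genes that differed with diet. In 129, where 10.9% of tested genes were higher and 7.45% lower on HFD, 6 of 10 Kupffer cell markers were higher and 0 lower, 3 of 9 stellate cell markers higher and 1 lower, and 2 of 10 sinusoidal endothelial markers higher and 1 lower. In B6, where 27.5% were higher and 32.7% lower, 6 of 10 Kupffer cell, 8 of 9 stellate cell and 7 of 10 endothelial markers were higher and 0 of each list lower. The summed Kupffer markers ran from 914 to 2125 in 129 HFD livers and from 633 to 2522 in 129 chow livers, and from 1213 to 5884 in B6 HFD livers and from 824 to 2105 in B6 chow livers. The slope of log2 value on transcript GC content also differed between sets, with means of 0.14 in 129 HFD, 0.10 in 129 chow, 0.19 in B6 HFD and -0.43 in B6 chow (log2 per 10 points of GC, relative to the average library). Mir6236, an annotated microRNA entry, ranged from 27.7 to 91012 between wild-type libraries, with medians of 1104, 2570, 8292 and 223 in the same order of sets. Both properties also varied within sets. The GC slope ran from -0.99 to 0.74 between 129 chow libraries and from -1.25 to 0.25 between B6 chow libraries. In 129 chow it was -0.10, -0.62 and -0.88 at ZT2 and 0.52, 0.74 and 0.59 at ZT18. Mir6236 in the same libraries was 167, 124 and 27.7 at ZT2 and 61431, 48980 and 39055 at ZT18. Library B6 chow ZT14 replicate 3 stood apart, with 14.8% of the tested genes below a value of 1. The part of these differences in the results below was not tested except where a value is given.

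Esrra (NM_007953, chr19:6910977-6921808, minus strand, mm10) has 1 transcript entry of 2233 bases with a GC content of 61.8%. Esrrg has 5 entries on the plus strand of chromosome 1, the main one NM_001243792 at chr1:187609006-188214884 with 5344 bases and 44.6% GC. For the Esrrg LKO libraries the main entry was instead NM_001357534, at chr1:187651758-188214885 with 5343 bases. Ppargc1a has 3 entries on the minus strand of chromosome 5, the main one NM_008904 at chr5:51454249-51553921 with 6449 bases and 41.7% GC. Ppargc1b has 2 entries on the minus strand of chromosome 18, the main one NM_001364996 at chr18:61291445-61400412 with 10392 bases. No GC content was matched to this entry, and the other Ppargc1b entry had 57.8%.

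Entries of 1 gene share reads and gave nearly equal values, with a largest gap in any wild-type library of 3.90 for Esrrg, 6.65 for Ppargc1a and 7.74 for Ppargc1b, so isoforms could not be told apart. Per kilobase of transcript, the mean wild-type level was 19.3 for Esrra, 11.7 for Ppargc1a, 10.004 for Ppargc1b and 4.54 for Esrrg.

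The 250 bases before the annotated start are shown for Esrra, for the main Esrrg entry and for the upstream start of Ppargc1a, because these windows precede genes whose levels are compared here and were searched for the motifs of known regulators. They are from RefSeq on GRCm38.p6, written 5′ to 3′ on the gene's strand, and capitals mark a motif match.
Esrra, chr19:6921809-6922058, minus strand: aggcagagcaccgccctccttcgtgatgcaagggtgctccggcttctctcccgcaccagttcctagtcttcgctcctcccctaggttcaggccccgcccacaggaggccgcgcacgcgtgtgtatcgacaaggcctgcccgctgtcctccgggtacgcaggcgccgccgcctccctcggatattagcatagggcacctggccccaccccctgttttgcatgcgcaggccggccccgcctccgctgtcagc
Esrrg, chr1:187608756-187609005, plus strand: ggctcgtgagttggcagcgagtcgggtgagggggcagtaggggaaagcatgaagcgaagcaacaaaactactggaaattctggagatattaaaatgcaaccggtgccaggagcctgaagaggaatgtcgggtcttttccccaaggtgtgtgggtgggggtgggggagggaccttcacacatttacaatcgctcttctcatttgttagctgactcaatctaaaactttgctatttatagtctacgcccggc
Ppargc1a, chr5:51567726-51567975, minus strand: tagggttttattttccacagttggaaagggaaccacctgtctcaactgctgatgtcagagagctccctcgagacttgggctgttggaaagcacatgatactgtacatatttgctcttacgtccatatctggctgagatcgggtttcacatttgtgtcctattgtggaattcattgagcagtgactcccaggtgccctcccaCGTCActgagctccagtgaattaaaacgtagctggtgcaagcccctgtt

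Both strands were searched for the ERR half-site AAGGTCA, the E-box CACGTG read by clock factors and the half-site TGACG of the cyclic AMP response element read by CREB. The Ppargc1a window held 1 match, the CREB half-site on the opposite strand, beginning 49 bases before the start and overlapping no other match. That start belongs to another Ppargc1a entry (chr5:51454249-51567725) and not to the main entry whose levels are compared. The window before the start of the main entry, at 51553921, was not searched. The Esrra window and the windows of 4 Esrrg starts held none, which says only that these letters are not in these windows. Over 32851 RefSeq promoter windows of the same length, 17.8% held the CREB half-site, 6.02% the E-box and 4.08% the ERR half-site. GC content was 68.4% in the Esrra window, 50.8% in the Esrrg window and 48.0% in the Ppargc1a window.

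Diet did not move the 4 genes in 1 direction. Averaged over the 6 times, the receptor Esrrg rose and both coactivators fell on HFD in both strains, while Esrra rose on HFD in B6 only by the test and its diet effect differed between the strains. In 129, 1 of the 4 genes passed an adjusted p of 0.05 as higher and 2 as lower on HFD (limma), where 10.9% of the 11286 tested genes passed as higher and 7.45% as lower. In B6, all 4 passed, where 60.2% of tested genes passed, 27.5% higher and 32.7% lower, so a call in B6 was common to most genes. The diet effect itself differed between strains for 1 of the 4, where 34.4% of tested genes did.

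**Figure D1:**
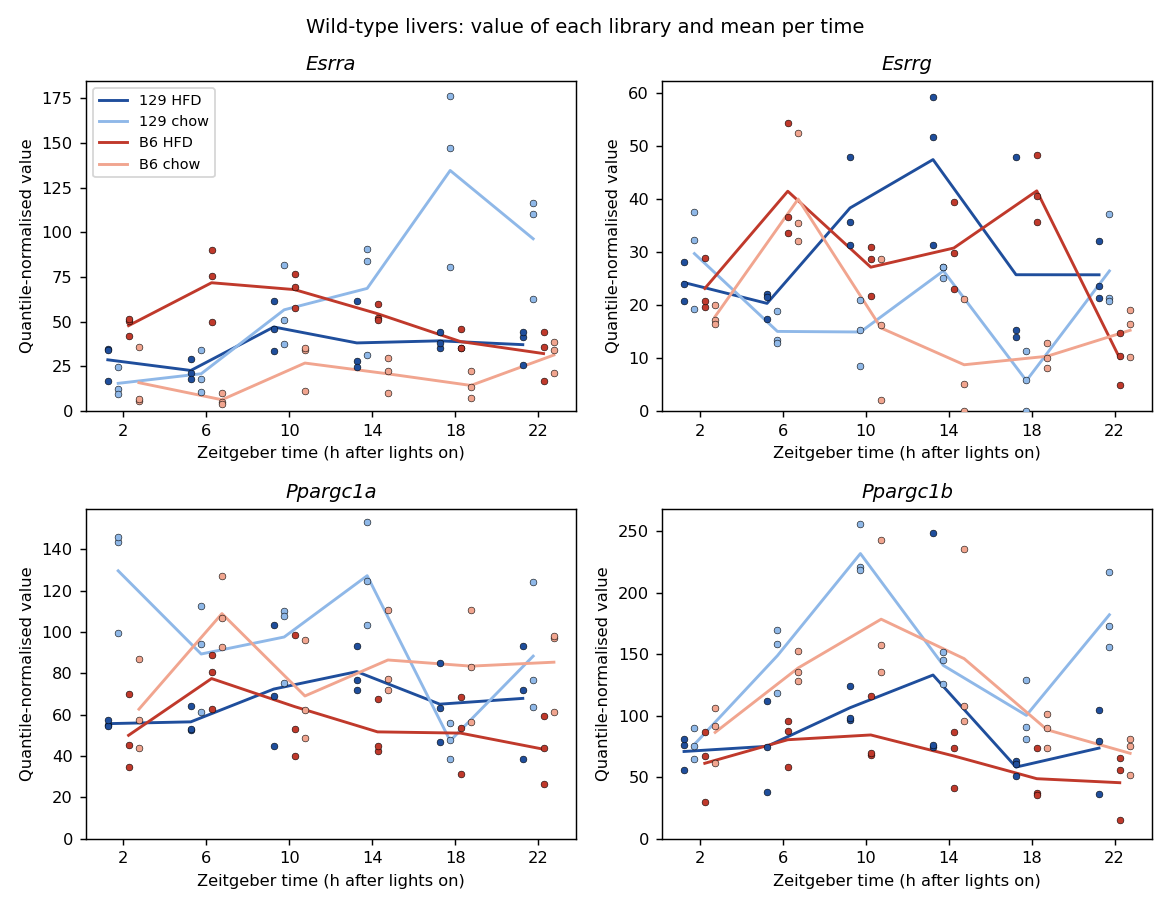
Quantile-normalised value (vertical axis, from 0) of the 4 genes in each of the 72 wild-type libraries by zeitgeber time (horizontal axis, hours), with dots for libraries and lines for the mean of 3 at each time in 129 HFD, 129 chow, B6 HFD and B6 chow. Esrra reaches a mean of 135 at ZT18 in 129 chow and only 14.4 at that time in B6 chow, and the mean of Ppargc1b lies lower on HFD than on chow at every time in both strains.

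ERR alpha, the receptor best known for oxidative genes, showed the clearest interplay of diet and strain. Esrra values in 129 HFD livers had a lowest, median and highest of 16.8, 34.6 and 61.7, against 9.37, 56.8 and 176 in 129 chow livers. In B6 HFD livers they were 16.6, 50.8 and 89.9, against 4.23, 17.3 and 38.4 in B6 chow livers. All 129 HFD libraries lay inside the range of 129 chow, but only 4 of 18 B6 HFD libraries lay inside the range of B6 chow. The log2 difference (HFD minus chow, on values plus 1) was -0.49 ± 0.20 (SE) in 129 with an adjusted p of 0.0848, and 1.62 ± 0.20 in B6 (3.08-fold) with an adjusted p of 2.56e-09. The diet effect in 129 minus that in B6 was -2.11 ± 0.29 on the log2 scale (95% interval -2.69 to -1.54, adjusted p = 7.90e-07).

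The separate times show where the Esrra effects lay. At ZT6, Esrra was 89.9, 75.7 and 49.9 in the 3 B6 HFD livers, against 4.92, 9.90 and 4.23 in the 3 B6 chow livers. At ZT18 it was 35.4, 44.2 and 38.4 in 129 HFD livers, against 80.5, 176 and 147 in 129 chow livers. In neither case did the groups overlap. The share of all tested genes without overlap was not counted, here or for the groups of 3 below. In B6 the rise passed at ZT2 (log2 2.01), ZT6 (3.35), ZT14 (1.46) and ZT18 (1.5), where 14.7%, 35.1%, 30.2% and 23.1% of tested genes passed, and at ZT22 the groups overlapped and the difference was -0.03. In 129 the fall passed at ZT18 alone, at -1.68 (adjusted p = 0.0327), where 5.49% of tested genes passed. The difference between the strains' diet effects passed at ZT6 (-3.11, adjusted p = 0.0234, 0.425% of tested genes) and at ZT18 (-3.18, adjusted p = 0.00329, 21.8% of tested genes).

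**Figure D2:**
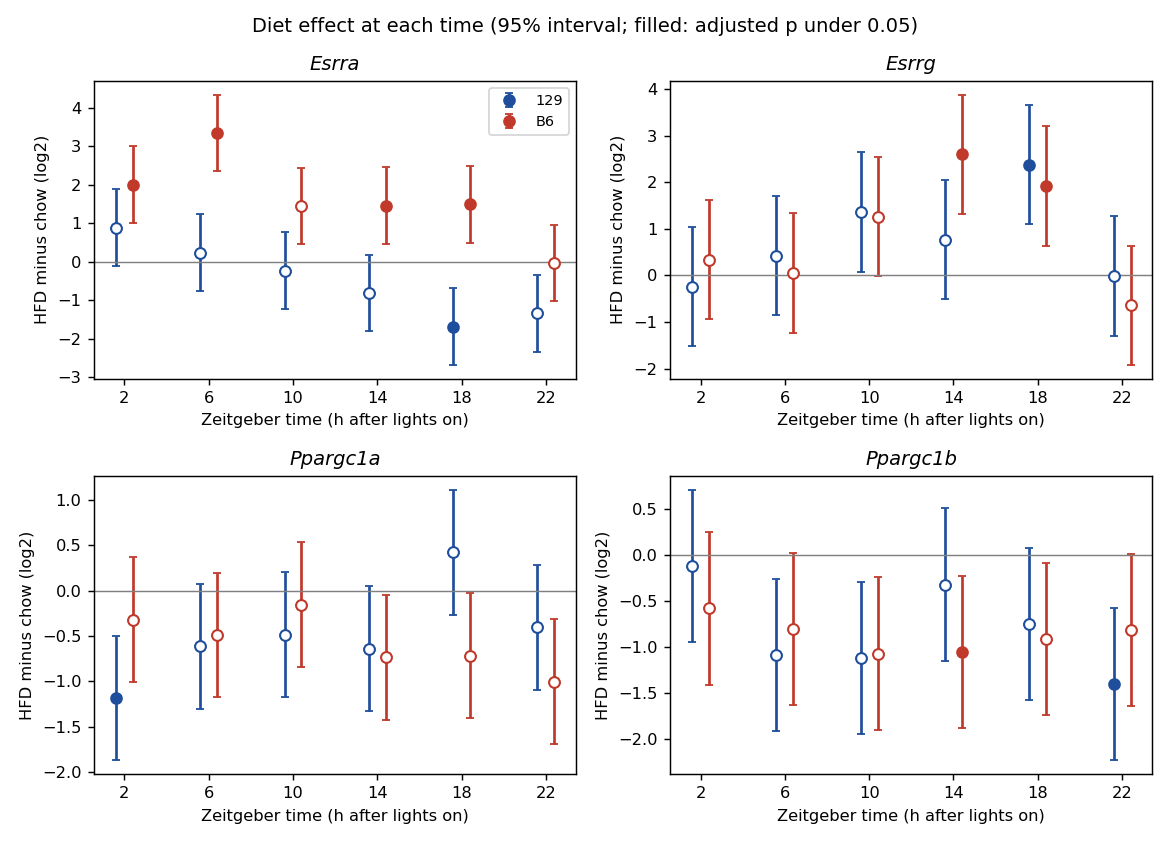
Diet effect (vertical axis, HFD minus chow, log2) on each gene at each zeitgeber time (horizontal axis, hours) in 129 and in B6, with 95% intervals from limma; filled points passed an adjusted p of 0.05. The Esrra effect in 129 runs from 0.88 at ZT2 to -1.68 at ZT18, and the Ppargc1b effect is below 0 at all 6 times in both strains.

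Between strains, Esrra was the 1 of the 4 genes that passed on chow and the 1 that passed on HFD, averaged over the 6 times. On chow, where 53% of tested genes differed, it was 2.96-fold higher in 129 than in B6 (log2 1.57 ± 0.20, adjusted p = 6.87e-09). The gap was widest at ZT18, with 80.5, 176 and 147 in 129 chow livers against 13.2, 7.21 and 22.6 in B6 chow livers, with no overlap (log2 3.20, adjusted p = 2.09e-06, 47.9% of tested genes). On HFD, where 32.3% of tested genes differed, it was lower in 129 than in B6 (log2 -0.54 ± 0.20, adjusted p = 0.0332). At ZT6 the values were 29.0, 21.1 and 18.19 in 129 HFD livers against 89.9, 75.7 and 49.9 in B6 HFD livers, again with no overlap (log2 -1.60, adjusted p = 0.0288, 9.34% of tested genes). The call on HFD was lost without the libraries numbered 2 (adjusted p = 0.277) or 3, and, at log2 -0.52 to -0.49, without any of 7 libraries: 129 HFD ZT2 replicate 1, ZT6 replicate 3, ZT10 replicate 3, ZT14 replicates 2 and 3 and ZT22 replicate 2, and B6 HFD ZT22 replicate 1. By mean level the order of sets was 129 chow (65.5 ± 49.2, SD, n = 18), B6 HFD (52.2 ± 17.6), 129 HFD (35.5 ± 12.9) and B6 chow (19.3 ± 12.5); each neighbouring pair overlapped in range.

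The estimates of the Esrra effects moved when properties of the libraries were taken into account. The Mir6236 level differed between the sets, with medians of 223 in B6 chow and 8292 in B6 HFD livers. Its part therefore cannot be told apart from that of diet or strain. With each library's dependence on GC and length removed, the diet effect was -0.51 in 129 (adjusted p = 0.00269) and 0.73 in B6, the strain difference on chow 0.85 and the interaction -1.24, all past the threshold. With the Mir6236 level of each library in the model, the diet effect in B6 was 0.42 (adjusted p = 0.501), the strain difference on chow 0.76, that on HFD 0.058 and the interaction -0.71 (adjusted p = 0.740). The 5 genes whose 24 set-by-time means were most like those of Esrra were Dohh (Pearson r = 0.956), Ppp1r16a (0.954), Chchd10 (0.948), Ptov1 (0.943) and Igfals (0.942), with GC contents between 58.9% and 64.1%; the 24 means share libraries and base composition, and r is a description.

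ERR gamma, the gene deleted in this series, was the least abundant of the 4 per kilobase. Esrrg in 129 HFD livers had a lowest, median and highest value of 14, 26.04 and 59.4, against 0, 20.04 and 37.5 in 129 chow livers. In B6 HFD livers it was 4.85, 29.4 and 54.4, against 0, 16.5 and 52.6 in B6 chow livers. The ranges overlapped widely, with 14 of 18 libraries of 129 HFD and 17 of 18 of B6 HFD inside the range of their chow set. The 2 values listed at 0 were 129 chow ZT18 replicate 1 and B6 chow ZT14 replicate 3, the library that stood apart. They are those of the main entry, and another Esrrg entry had a lowest wild-type value of 0.904. Esrrg rose on HFD by 0.78 ± 0.26 (log2) in 129 (1.72-fold, adjusted p = 0.0276) and by 0.92 ± 0.26 in B6 (1.90-fold, adjusted p = 0.00213).

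Single times passed for Esrrg at ZT14 and ZT18. At ZT18 Esrrg was 15.2, 14 and 48.1 in 129 HFD livers against 0, 11.3 and 5.92 in 129 chow livers (log2 2.38, adjusted p = 0.0183). At the same time it was 48.4, 40.6 and 35.8 in B6 HFD livers against 12.9, 8.13 and 10.02 in B6 chow livers (log2 1.92, adjusted p = 0.0250). At ZT14 it was 39.5, 29.9 and 23.0 in B6 HFD livers against 5.08, 21.2 and 0 in B6 chow livers (log2 2.60, adjusted p = 0.00293). The shares of tested genes that passed were 5.49% in 129 at ZT18, 23.1% in B6 at ZT18 and 30.2% in B6 at ZT14. In these 3 comparisons the groups did not overlap. The 129 groups did not overlap at ZT10 and ZT14 either, where the diet difference did not pass (adjusted p = 0.683 and 0.871, limma). At ZT2, ZT6, ZT10 and ZT22 no diet difference of Esrrg passed in either strain. Between strains on chow, Esrrg passed at ZT14, with 27.2, 27.1 and 25.1 in 129 chow livers against the same 5.08, 21.2 and 0 in B6 chow livers (log2 2.42, adjusted p = 0.00599, 23% of tested genes). These ZT14 values rest in part on B6 chow ZT14 replicate 3; without it the mean diet effect in B6 was 0.73 (adjusted p = 0.00543), the strain difference on chow 0.056 and the interaction 0.055. The diet effect in 129 minus that in B6 was -0.14 (95% interval -0.88 to 0.60), and the strain differences were 0.25 on chow (interval -0.27 to 0.78) and 0.11 on HFD (interval -0.41 to 0.63). The call in 129 was lost whichever replicate number was left out (log2 0.67 to 0.93, adjusted p = 0.0567 to 0.187), without the filter on low values (adjusted p = 0.0531), and without 129 chow ZT18 replicate 1 (0.60, adjusted p = 0.0716) or without 129 HFD ZT18 replicate 3 (0.69, adjusted p = 0.0591), and with the Mir6236 level in the model the rise in B6 was 1.01 with an adjusted p of 0.233.

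The genes most like Esrrg over the 24 means were Fzd1 and Wdr41 (r = 0.757 each), Ica1 (0.756), Nhlrc3 (0.738) and Lbh (0.729). With each set's own mean removed, so that only the course over the day counted, they included Csgalnact1 (0.863), Ica1 (0.785), Lrrc39 (0.763) and Trhde (0.761).

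PGC-1 alpha fell on HFD in both strains. Ppargc1a in 129 HFD livers had a lowest, median and highest value of 38.6, 63.8 and 103, against 38.6, 101 and 153 in 129 chow livers. In B6 HFD livers it was 26.6, 53.4 and 98.7, against 43.8, 85.2 and 127 in B6 chow livers. The sets overlapped, with 17 of 18 libraries of 129 HFD and 13 of 18 of B6 HFD inside the range of their chow set. The log2 difference was -0.48 ± 0.14 in 129 (adjusted p = 0.0103) and -0.57 ± 0.14 in B6 (adjusted p = 0.000485), below 0 at 5 of 6 times in 129 and at 6 of 6 in B6. The call in 129 was lost without the libraries numbered 2 (-0.40, adjusted p = 0.284). A single time passed on its own, ZT2 in 129, with 55.0, 54.8 and 57.3 in 129 HFD livers against 99.3, 144 and 146 in 129 chow livers (log2 -1.18, adjusted p = 0.0363, 4.17% of tested genes). With the GC and length trend removed the fall in B6 was -0.14 (adjusted p = 0.400), and with the Mir6236 level in the model it was -0.29 (adjusted p = 0.595).

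The strains did not differ past the threshold in Ppargc1a: the log2 difference, 129 minus B6, was 0.18 on chow (95% interval -0.10 to 0.46) and 0.27 on HFD (interval -0.01 to 0.55). The diet effect in 129 minus that in B6 was 0.09 (interval -0.31 to 0.48). Its nearest genes over the 24 means were Isg20l2 (r = 0.827), Upf3b (0.799), Arl5b (0.792), Zbtb11 (0.791) and Zfp281 (0.782), and with set means removed Adat2 (0.775), Spata1 (0.768), Med31 (0.766), Akap7 (0.765) and Lmbrd1 (0.754).

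PGC-1 beta also fell on HFD in both strains. Ppargc1b in 129 HFD livers had a lowest, median and highest value of 36.7, 76.1 and 248.9, against 64.9, 149 and 256 in 129 chow livers. In B6 HFD livers it was 15.1, 67.4 and 116, against 51.8, 104 and 243 in B6 chow livers. The high 129 HFD value was a single library, ZT14 replicate 1, and the next highest of that set was 124. The log2 difference was -0.80 ± 0.17 in 129 (adjusted p = 0.000381) and -0.87 ± 0.17 in B6 (adjusted p = 1.73e-05), below 0 at all 6 times in each strain.

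Of the single times, ZT22 passed in 129 and ZT14 in B6. At ZT22 Ppargc1b was 105, 79.7 and 36.7 in 129 HFD livers against 217, 156 and 173 in 129 chow livers (log2 -1.40, adjusted p = 0.0289, 6.6% of tested genes). At ZT14 it was 86.4, 41.4 and 74.2 in B6 HFD livers against 95.6, 108 and 236 in B6 chow livers (log2 -1.05, adjusted p = 0.0468, 30.2% of tested genes). Neither pair of groups overlapped. The B6 chow value of 236 is that of ZT14 replicate 3, the library that stood apart, and no ZT14 result without it is given. Without that library the mean diet effect in B6 was -0.81 (limma, adjusted p = 4.37e-05). The diet effect in 129 minus that in B6 was 0.07 (95% interval -0.41 to 0.55). The mean strain differences did not pass, at 0.33 on chow (adjusted p = 0.0958) and 0.40 on HFD (adjusted p = 0.0621). At ZT22 alone the strains differed on chow, with 217, 156 and 173 in 129 chow livers against 51.8, 75.5 and 81.1 in B6 chow livers and no overlap (log2 1.39, adjusted p = 0.0113, 22.7% of tested genes). With the Mir6236 level in the model the fall in B6 was -0.59 (adjusted p = 0.291); with the GC and length trend removed it was -1.51, and the strain difference on chow turned to -0.28 (adjusted p = 0.253).

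**Figure D3:**
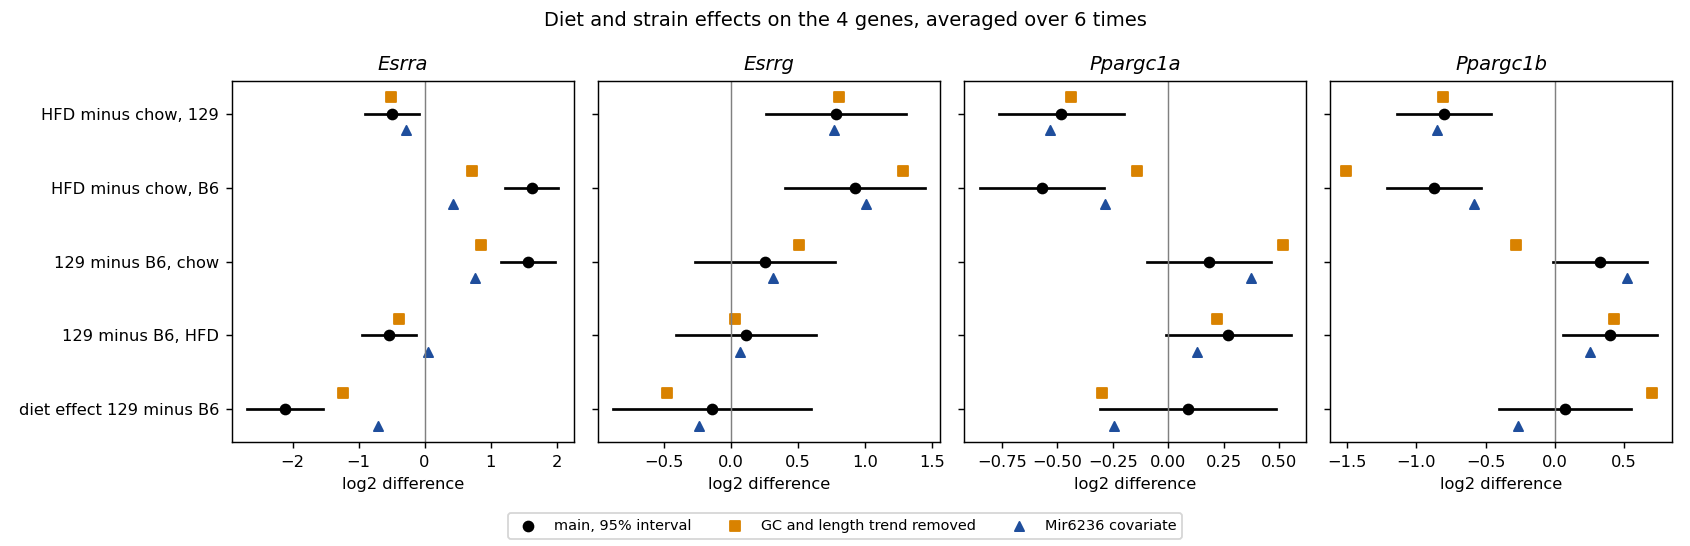
Log2 differences (horizontal axis, scaled for each gene) of the 4 genes for diet within strain (HFD minus chow), strain within diet (129 minus B6) and the difference of the diet effects, averaged over the 6 times; black dots are the main estimate with its 95% interval, orange squares have each library's dependence on GC and length removed and blue triangles have the Mir6236 level in the model. The Esrra interaction lies at -2.11 and moves to -1.24 and -0.71, while the diet effects in 129 stay on the same side of 0 for all 4 genes.

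Ppargc1b was most like Yy1 (r = 0.860), Zfp385b (0.851), Cobll1 (0.836), Cyp2c23 (0.830) and Atp1b1 (0.822) over the 24 means, and like Gprin3 (0.848), Fnip2 (0.816), Sec31b (0.790), Hook2 (0.789) and Yy1 (0.766) with set means removed. Among the 4 genes themselves, the coactivators had the highest correlation over the 24 means, Ppargc1a with Ppargc1b at r = 0.64, and with set means removed Esrrg and Ppargc1a had the highest, at r = 0.70. Esrra was close to 0 with Esrrg (-0.002) and with Ppargc1b (0.004) over the 24 means.

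Daily courses were tested as a 24 h cosine. In 129 chow livers 47.8% of tested genes were rhythmic and Esrra was the 1 of the 4 that passed: its mean was 135 ± 49.1 (SD, n = 3) at ZT18 and 15.5 ± 8.08 at ZT2, with a fitted peak at ZT17 and an amplitude of 1.42 on the log2 scale (adjusted p = 1.06e-05). With the Mir6236 level in the model the amplitude was 0.42 (adjusted p = 0.322), and with the GC and length trend removed it was 0.73 and still passed. The Mir6236 level and the GC slope both differed between ZT2 and ZT18 in 129 chow livers. Their part therefore cannot be told apart from that of time. In B6 chow livers, where 6.15% of tested genes passed, Ppargc1b was the 1 of the 4, with 179 ± 56.5 at ZT10, 69.5 ± 15.5 at ZT22 and an amplitude of 0.66 around ZT10.03 (adjusted p = 0.0349). That call was lost, at amplitudes of 0.60 to 0.68, without any of 7 B6 chow libraries: ZT2 replicate 1, ZT6 replicate 2, ZT10 replicates 1 and 2, ZT14 replicate 3 and ZT22 replicates 1 and 2; it was also lost whichever replicate number was left out (adjusted p = 0.114 to 0.239). On HFD none of the 4 passed in 129 (7.05% of tested genes) or in B6 (4.08%) by limma; at an unadjusted p under 0.05 the count was 0 in 129 and 1 in B6, Ppargc1b with an amplitude of 0.54, where 17% and 15% of tested genes reached that level.

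A test of any difference among the 6 times, without a fixed wave shape, passed for more of the genes on chow. In 129 chow, where 50.9% of tested genes passed, all 4 did: Esrrg was highest at ZT2 (29.8 ± 9.41) and lowest at ZT18 (5.74 ± 5.66), Ppargc1a was highest at ZT2 (130 ± 26.3, against 47.4 ± 8.67 at ZT18), and Ppargc1b at ZT10 (232 ± 21.1, against 76.8 ± 12.7 at ZT2). In B6 chow, where 25.8% passed, Esrra (adjusted p = 0.0105) and Esrrg (adjusted p = 0.0137) did, with Esrrg at 40.1 ± 11 at ZT6 and 8.75 ± 11.1 at ZT14. On HFD none passed in 129 or in B6, where 5.24% and 6.96% of tested genes did.

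Whether the cosine itself changed was tested directly and passed for none of the 4 genes by limma. With adjustment, 1.26% of tested genes passed for diet in 129, 0.0532% for diet in B6, 13.1% between strains on chow and 0.0443% between strains on HFD. At an unadjusted p under 0.05 the counts were 1 of 4 for diet in 129, 2 of 4 for diet in B6, 1 of 4 between strains on chow and 0 of 4 between strains on HFD, and the shares of all tested genes at that level were 18.9%, 9.32%, 34.8% and 4.64% in the same order. The smallest adjusted p-values were those of Esrra, 0.113 between strains on chow and 0.126 for diet in 129. Without 129 chow ZT14 replicate 1 these became 0.0377 and 0.0322. That library was unlike replicates 2 and 3 of its time. Its Mir6236 level was 53.8, against 39055 and 35151, and its GC slope -0.31, against 0.31 and 0.26. A rhythm that passed in 1 set and not in another is therefore not shown to differ.

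In the Errg-Cre and Esrrg LKO livers the targeted gene was still listed with reads in every library. Esrrg had a lowest, median and highest value of 8.23, 25.9 and 62.0 in the 18 Errg-Cre libraries. In the 18 Esrrg LKO libraries it was 7.64, 16.4 and 39.4. The tables were normalised separately and hold no control library used here, so these values say nothing of the size of the deletion; a total over a transcript also counts reads of exons outside a deleted part. The mean values of the other genes were 83.0 ± 29.6 for Esrra, 72.2 ± 31.0 for Ppargc1a and 86.9 ± 40.2 for Ppargc1b in Errg-Cre livers, and 115 ± 25.6, 61.8 ± 11.5 and 75.3 ± 33.0 in Esrrg LKO livers (SD, n = 18 each).

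**Figure D4:**
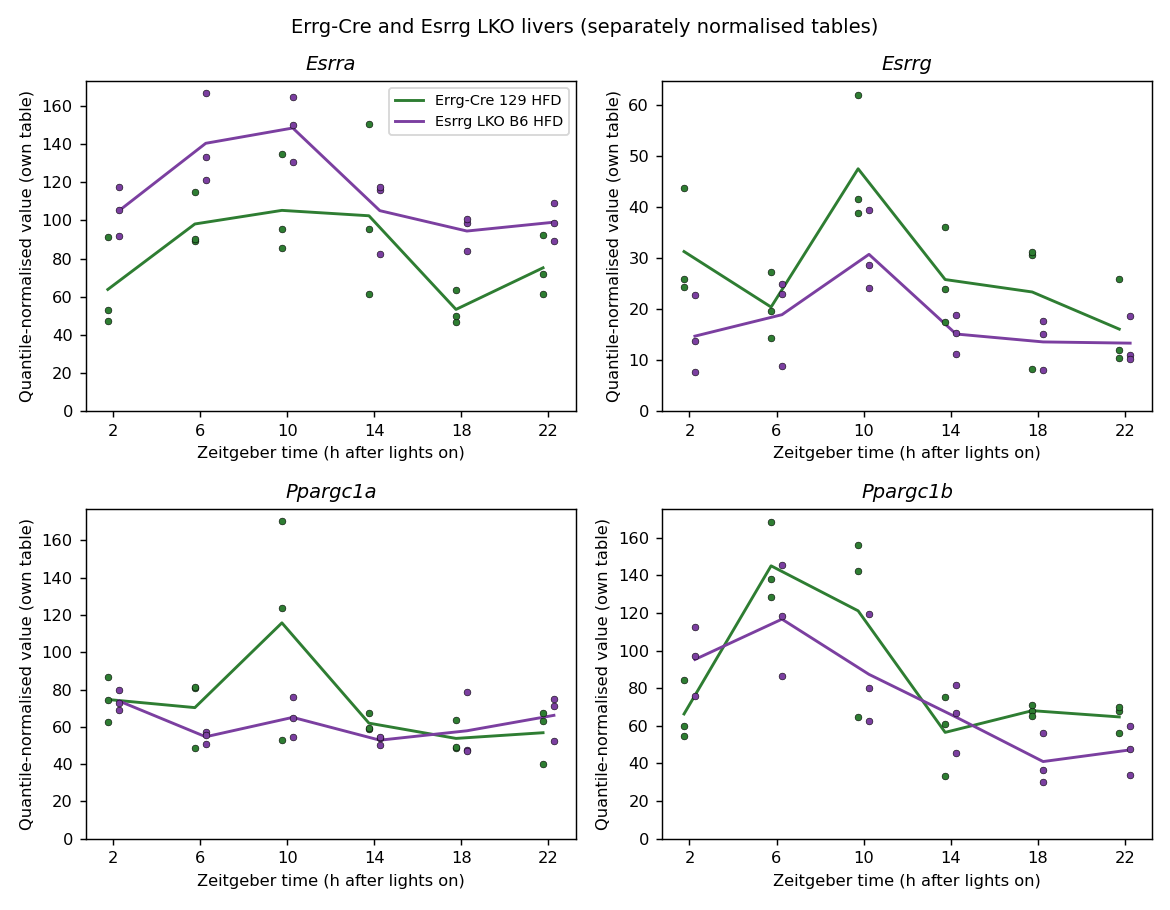
Quantile-normalised value (vertical axis, from 0, each set in its own table) of the 4 genes by zeitgeber time (horizontal axis, hours) in Errg-Cre 129 HFD and Esrrg LKO B6 HFD livers, with dots for libraries and lines for the mean of 3. Ppargc1b is highest at ZT6 in both sets, with means of 145 and 117; levels cannot be compared between the sets.

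Ppargc1b, the lipid-linked coactivator, passed the test for a daily rhythm in both of these sets. In Errg-Cre livers, where 17.8% of tested genes were rhythmic, it was the 1 of the 4 that passed: at ZT6 the values were 168, 138 and 128 and at ZT14 61.2, 33.1 and 75.2, with an amplitude of 0.56 around ZT7.0 (adjusted p = 0.0380). In Esrrg LKO livers, where 6.09% passed, Ppargc1b had 118, 145 and 86.4 at ZT6 and 36.5, 56.3 and 30.3 at ZT18, with an amplitude of 0.74 around ZT6.4 (adjusted p = 0.00175). The high and low times did not overlap in either set, but they were picked as the extremes of the 6 times, so this adds nothing to the test. Esrra also passed in Esrrg LKO livers, with 131, 165 and 150 at ZT10 and 84.0, 98.6 and 101 at ZT18 and an amplitude of 0.33 around ZT8.0 (adjusted p = 0.0140). In the 2 sets Esrrg was highest at ZT10, with means of 47.6 ± 12.6 in Errg-Cre and 30.8 ± 7.81 in Esrrg LKO livers, and its cosine did not pass (adjusted p = 0.199 and 0.241). The Esrra call in Esrrg LKO livers was lost whichever replicate number was left out (adjusted p = 0.0713 to 0.213) and in the test of any difference among the 6 times (adjusted p = 0.0697), and the Ppargc1b call there was lost without the libraries numbered 2 (adjusted p = 0.0558). The Ppargc1b call in Errg-Cre livers was lost whichever replicate number was left out (adjusted p = 0.119 to 0.167), with the GC and length trend removed (amplitude 0.34, adjusted p = 0.220) and without the filter on low values (adjusted p = 0.0968). It was also lost, at amplitudes of 0.49 to 0.56, without any of 8 libraries: ZT2 replicate 3, ZT6 replicates 1, 2 and 3, ZT10 replicates 1 and 2, ZT14 replicate 1 and ZT22 replicate 2.

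Genes that the 4 regulators are known to work with or act on were followed in 4 lists. The diet counts stand against 10.9% of all tested genes higher and 7.45% lower on HFD in 129, and 27.5% higher and 32.7% lower in B6. Of 19 measured fatty acid oxidation genes, 10 rose and 0 fell on HFD in 129 (median log2 0.41, against 0.04 over all tested genes), and 13 rose and 1 fell in B6 (median 0.54, against -0.06). The counts were 15 and 0 in 129 and 3 and 0 in B6 with the Mir6236 level in the model. Cpt1a, which admits fatty acids into mitochondria, averaged 2887 ± 731 in 129 HFD livers against 1985 ± 900 in 129 chow livers (SD, n = 18 each). In B6 it averaged 3410 ± 622 in HFD livers against 1596 ± 439 in chow livers. Acadm, the medium-chain acyl-CoA dehydrogenase and a classic ERR target, averaged 4133 ± 555 in 129 HFD livers against 2613 ± 259 in 129 chow livers (log2 0.65, adjusted p = 1.64e-10). Acads, the short-chain enzyme, averaged 558 ± 115 in B6 HFD livers against 167 ± 108 in B6 chow livers.

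Genes of the respiratory chain and citric acid cycle did not move together. Of 40 measured, 1 rose and 5 fell on HFD in 129 (median 0.03), and 20 rose and 6 fell in B6 (median 0.20), where 27.5% of all tested genes were higher and 32.7% lower. With the Mir6236 level in the model the counts were 6 and 4 in 129 and 0 and 0 in B6; with the GC and length trend removed those in 129 were 1 and 11. Cox4i1, a cytochrome c oxidase subunit, averaged 1424 ± 232 in B6 HFD livers against 558 ± 342 in B6 chow livers. Ndufv1, a complex I subunit, averaged 648 ± 115 in B6 HFD livers against 335 ± 175 in B6 chow livers. In 129, Cox6c averaged 670.0 ± 68.2 in HFD livers against 854 ± 107 in chow livers (log2 -0.35) and Sdhd, a complex II subunit, 981 ± 84.1 against 1206 ± 114 (log2 -0.30). The diet effects differed between strains for 20 of the 40, more negative in 129 for 16 and more positive for 4, where 34.4% of all tested genes differed; with the Mir6236 level in the model it was 0 of the 40, and 14 of all tested genes against 3881 without it.

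**Figure D5:**
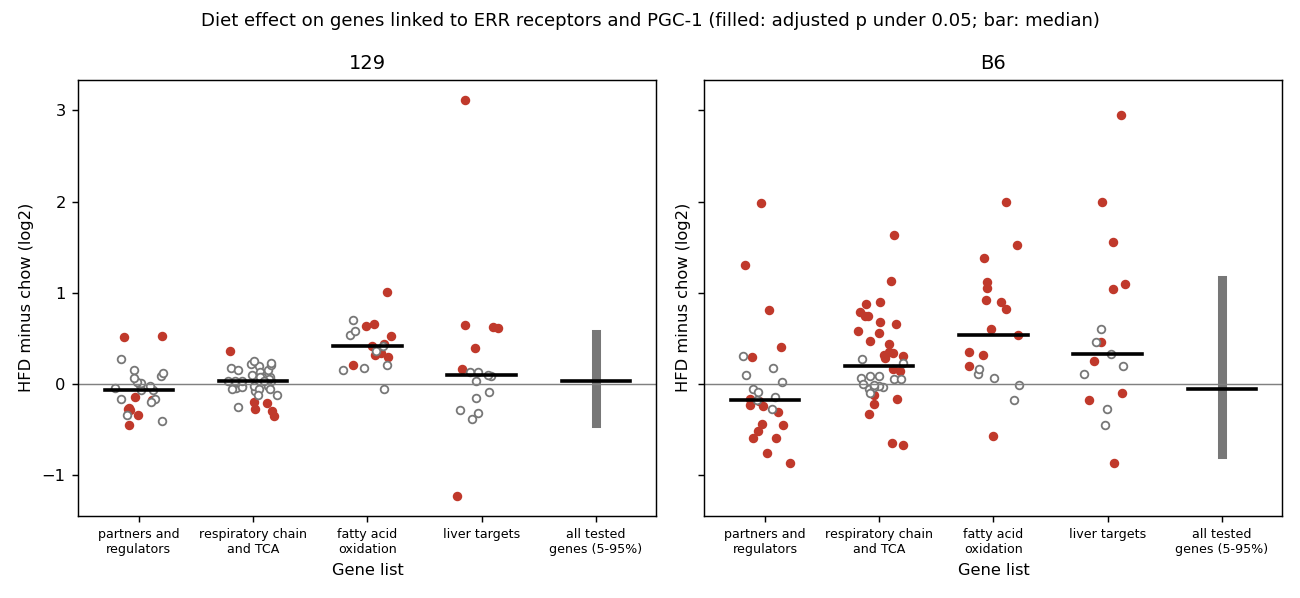
Diet effect (vertical axis, HFD minus chow, log2) of each measured gene in the 4 lists (horizontal axis) in 129 and in B6, with filled points past an adjusted p of 0.05, black bars for list medians and a grey bar for the 5th to 95th percentile of all tested genes. Fatty acid oxidation genes have medians of 0.41 in 129 and 0.54 in B6, and respiratory chain and citric acid cycle genes 0.03 in 129 and 0.20 in B6.

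Of 26 measured partners and regulators, 2 rose and 7 fell on HFD in 129 (median -0.06), and 5 rose and 12 fell in B6 (median -0.17), against the same shares of all tested genes. The B6 counts were 1 and 2 with the Mir6236 level in the model. Ppara, the fatty acid receptor coactivated by PGC-1, averaged 2258 ± 692 in 129 HFD livers against 1596 ± 540 in 129 chow livers, and 2787 ± 426 in B6 HFD livers against 1625 ± 466 in B6 chow livers. Sirt3, a mitochondrial deacetylase gene known as an ERR alpha target, rose by 0.52 (log2) in 129 and by 1.31 in B6. Nr0b2, which encodes the corepressor SHP, averaged 65.0 ± 46.6 in B6 HFD livers against 19.5 ± 16.6 in B6 chow livers. Esrrb, Perm1 and Fabp3 were below the filter and not tested.

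Of 17 measured liver targets, 6 rose and 1 fell on HFD in 129 (median 0.10), and 7 rose and 3 fell in B6 (median 0.32), against 27.5% of all tested genes higher and 32.7% lower in B6. The B6 counts were 2 and 0 with the Mir6236 level in the model. Fgf21, a fasting hormone gene, averaged 30.1 ± 21.0 in 129 HFD livers against 3.69 ± 5.23 in 129 chow livers. In B6 it averaged 20.7 ± 17 in HFD livers against 1.51 ± 2.12 in chow livers. Its chow means lay below the mean required of tested genes, so Fgf21 passed that filter through its HFD values. The size of its rise rests on these low chow values. Pcx, the first enzyme of gluconeogenesis from pyruvate, rose by 0.63 (log2) in 129 and by 2.0 in B6. Hamp, which encodes hepcidin and is a known ERR gamma target, fell to 1025 ± 401 in 129 HFD livers, against 2347 ± 690 in 129 chow livers (log2 -1.23, adjusted p = 1.02e-05).

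Between strains, the share of each list that differed is set against 53% of all tested genes on chow and 32.3% on HFD. On chow, with a median of -0.01 over all tested genes, 17 of the 40 respiratory chain and citric acid cycle genes were higher and 4 lower in 129 than in B6 (median 0.13), and 9 of the 17 liver targets were higher and 2 lower (median 0.46). The 21 of 40 respiratory chain and citric acid cycle genes are near the share of all genes. The same comparison gave 8 higher and 6 lower of 19 fatty acid oxidation genes (median 0.18) and 7 higher and 2 lower of 26 partners (median 0.10). On HFD, where the median over all tested genes was 0.05, the counts higher and lower in 129 were 3 and 9 for the respiratory chain and citric acid cycle, 4 and 2 for liver targets, 4 and 6 for fatty acid oxidation and 7 and 1 for partners, also near the share of all genes for the lists other than fatty acid oxidation. Beside these counts, 0 of 10 Kupffer cell markers were higher and 7 lower in 129 on chow, and 0 higher and 8 lower on HFD; their part in the list counts was not tested.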

How the data were processed

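The deposited signal values are quantile-normalised reads per RefSeq transcript; per the submitters' processing notes the authors used STAR and HOMER with mm10, and no versions are given in the sources used here. Sorted values are identical in all libraries of a table, so library totals carry no depth. The files were otherwise used as deposited; 18 columns that match no label were set aside, and 91 entries a table (0.215%) with no gene name were left out.

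Values were analysed as log2(value + 1) for genes with a mean of at least 10 (11286 in the wild-type table, 11621 with Errg-Cre, 11945 with Esrrg LKO), with 1 transcript entry a gene, that of the highest mean. Linear models of limma 3.58.1 (R 4.3.3, intensity trend in eBayes) were fitted to 24 set-by-time means of the 72 wild-type libraries; diet, strain and interaction contrasts were averaged over the 6 times, and each p was Benjamini-Hochberg adjusted over all tested genes with a threshold of 0.05. Because all wild-type libraries share 1 fit, comparisons share control samples. Rhythms were a cosine of 24 h, with limma's moderated F (numerator degrees of freedom 2), with any difference among 6 times (numerator 5) as an alternative. The functions were tested on simulated data. Replicate numbers were not used as a pairing: of 72 same-number correlations of deviations, 11 were over 0.1 (median -0.01, against 0.01 for other numbers).

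The 4 genes and all gene lists were chosen with earlier results of these data known. The rule for named genes took the 4 genes, the 5 most correlated genes for each, and of each list the counts and up to 4 of the most changed members. Of the correlated genes, 1 is not reported here. Transcript GC came from GENCODE transcripts matched by RefSeq accession (98.7% of tested wild-type genes). Alternatives were another pseudocount (5), no filter, a replicate block, summed transcripts, no trend, GC and length removal, a Mir6236 covariate and leaving out libraries. mm10 is the B6 genome, and its effect on 129 values was not tested.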

Additional observations from a re-analysis of the deposited data

Results flagged for a closer look

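The response of Esrra to diet differed between the strains. The diet effect in 129 minus that in B6 was -2.11 on the log2 scale (limma, adjusted p = 7.90e-07), and it is flagged because the difference itself was tested and passed. HFD minus chow was -0.49 in 129 and 1.62 in B6, and the interaction was below 0 at all 6 times. Leaving out any 1 of the 72 libraries or any replicate number kept it past the threshold, with the GC and length trend removed it was -1.24 and passed, and with the Mir6236 level in the model it was -0.71 and did not pass.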

How the results depend on the processing

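Most values for the 4 genes kept their direction and side of the threshold; the exceptions follow, with those from leaving out libraries at the end, and the cause was not tested. With the Mir6236 level in the model, the Esrra rhythm in 129 chow was 0.42, its diet effect in B6 0.42 and its interaction -0.71, and the B6 diet effects of Esrrg (1.01), Ppargc1a (-0.29) and Ppargc1b (-0.59) no longer passed; the interactions of Ppargc1a (-0.24) and Ppargc1b (-0.26) and the Esrra strain difference on HFD (0.058) changed sign. With the GC and length trend removed, the rhythms of Ppargc1b in 129 chow (0.74) and of Esrra in B6 HFD (0.51) and B6 chow (0.54), the Esrra diet effect in 129 (-0.51) and the Ppargc1a strain difference on chow (0.52) came to pass, the Ppargc1b rhythm in Errg-Cre (0.34) and the Ppargc1a diet effect in B6 (-0.14) ceased to, and the Ppargc1a interaction (-0.30) and the Ppargc1b strain difference on chow (-0.28) changed sign. A test of any of the 6 times (values are semi-ranges of the log2 means) made Esrrg (1.38), Ppargc1a (0.71) and Ppargc1b (0.80) pass in 129 chow and Esrra (1.09) and Esrrg (1.48) in B6 chow, and ended the calls of Ppargc1b in B6 chow (0.66) and Esrra in Esrrg LKO (0.32). Without the filter, the rhythms of Ppargc1b in B6 chow (0.66) and Errg-Cre (0.56), the Esrrg diet effect in 129 (0.78) and the Esrra strain difference on HFD (-0.54) did not pass, and with a pseudocount of 5 the Esrra diet effect in 129 did (-0.48). Without the 3 libraries with most low values, the Ppargc1b rhythm in B6 chow was 0.62 and did not pass, the Esrrg interaction was 0.019, and the Ppargc1b strain differences on HFD (0.42) and chow (0.40) passed. The replicate block changed 1 call, the Ppargc1b rhythm in Errg-Cre (0.56, adjusted p = 0.0501).

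Leaving out a replicate number ended the calls of the Esrrg diet effect in 129, the Ppargc1b rhythms in B6 chow and Errg-Cre and the Esrra rhythm in Esrrg LKO for each of the 3 numbers. It ended the Esrra strain difference on HFD for 2 numbers, and the Ppargc1a diet effect in 129 and the Ppargc1b rhythm in Esrrg LKO for 1. The Esrra diet effect in 129 and the Ppargc1b strain difference on HFD came to pass for 1. Over libraries or replicate numbers left out, the rhythm amplitudes ran from 0.75 to 1.48 for Esrrg and 0.60 to 0.71 for Ppargc1b in B6 chow, 0.34 to 0.50 for Esrra and 0.49 to 0.69 for Ppargc1b in Errg-Cre, and 0.30 to 0.36 for Esrra and 0.69 to 0.80 for Ppargc1b in Esrrg LKO. Diet effects in 129 ran from -0.70 to -0.38 for Esrra, 0.60 to 0.93 for Esrrg and -0.54 to -0.40 for Ppargc1a, and the Esrra effect passed without ZT14 replicate 1 of 129 HFD (-0.56) or 129 chow (-0.57). Interactions ran from -0.38 to 0.055 for Esrrg and -0.034 to 0.14 for Ppargc1b. Strain differences on HFD ran from -0.61 to -0.49 for Esrra, -0.15 to 0.26 for Esrrg and 0.29 to 0.47 for Ppargc1b, which passed without any of 11 libraries, and on chow from -0.16 to 0.65 for Esrrg and 0.21 to 0.40 for Ppargc1b. The Esrra rhythm change with diet in 129 ran from 0.88 to 1.43 and its difference between strains on chow from 0.66 to 1.09.

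Over all tested genes, the Mir6236 term moved the calls for diet in B6 to 565, against 6791 without it, for the interaction to 14, against 3881, for strain on chow to 1446, against 5976, and for rhythms in 129 chow to 1665, against 5395. GC removal moved the interaction to 1965. Depth is unknown, which limits what a low value can show.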
